A study of Drosophila melanogaster with 12 samples.

Results

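The comparison was made between heads of adult Drosophila melanogaster that expressed mouse TET2 with the R43G substitution (mTET2-R43G) and heads that expressed wild type mouse TET2 (mTET2-wt). Its members were chosen by genotype alone and are 6 of the 12 RNA-seq libraries of the series, 3 per group, and 12433 of 17730 annotated genes were tested, those with a summed count of at least 10 over the 12 libraries. The other libraries, 3 from control heads and 3 from heads that expressed mouse TET2 with the R1261C substitution (mTET2-R1261C), entered the fit and are shown beside the comparison. The question the comparison addresses is which transcripts set the mutant apart from the wild type protein, since both groups carry a TET2 transgene.

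All 4 groups were heads of 1-day old flies that carried the driver Tet-Gal4, which turns on a transgene only in cells that express the fly gene Tet. The genotypes were mTet2-R43G;Tet-Gal4, mTet2-Wt;Tet-Gal4, mTet2-R1261C;Tet-Gal4 and W1118 Control;Tet-Gal4, so that the controls had the driver and no transgene. The mouse cDNAs carried a Flag tag at the N-terminus and were placed by an integrase at the same landing site on chromosome arm 2R, which leaves the rest of each stock's genome free to differ. Each library came from a pool of 30 heads of both sexes and the labels call the 3 libraries of a group biological replicates, so that p-values measure the spread between pools. The counts cover fly genes only, and the level of the mouse transcripts was not analysed here.

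TET proteins are dioxygenases that oxidise 5-methylcytosine to 5-hydroxymethylcytosine in DNA, and fly Tet, the only member of the family in this insect, is known for its work on RNA in the nervous system. The catalytic domain lies in the C-terminal part of the protein. Arginine 43 lies in the N-terminal part, outside that domain, whereas R1261C changes a residue inside it. The head of a fly holds the brain, the photoreceptors of the compound eyes, the antennae, muscle and the fat body that surrounds the brain, so that a level measured in whole heads is a sum over all of these tissues. In such bulk samples, fewer cells of a type and less RNA per cell cannot be told apart.

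The libraries held 15894383 to 19434046 counted read pairs, and ribosomal RNA took 2.19% to 7.31% of them, with the highest share in mTET2-R43G replicate 3. Phototransduction genes summed to between 40130 and 54650 CPM (counts scaled to library size) in each library. Markers of neurons summed to between 7406 and 10250 CPM, so that the tissue label was met by these markers. Of 16 testis markers, 5 had enough reads to be tested, and these summed to between 359.6 and 512.2 CPM. The library mTET2-wt replicate 3 stood apart through midgut digestive enzymes, which summed to 2734 CPM there and to between 117 and 453 CPM in the other 11 libraries. White (w), which the transformation vector carries as an eye colour marker, was at 3.61, 5.56 and 4.96 CPM in control heads, at 16.6, 19.1 and 17.7 CPM in mTET2-wt and at 22.7, 23.0 and 22.4 CPM in mTET2-R43G. Its level set the transgene groups apart from control, and its difference between mTET2-R43G and mTET2-wt had an adjusted p of 0.428.

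Of the genes tested, 10 (0.0804%) were differentially expressed (DEGs, with a Benjamini-Hochberg adjusted p of at most 0.05 in the quasi-likelihood test of edgeR and a log2 difference of 1 or more in either direction). Of these, 5 (0.0402%) were upregulated in mTET2-R43G and 5 (0.0402%) were downregulated. Another 8 genes passed the adjusted p with a smaller fold change, which made 18 genes in all (0.145%), 8 higher (0.0643%) and 10 lower (0.0804%). An unadjusted p under 0.05 was found for 1226 genes (9.86%), 583 higher (4.69%) and 643 lower (5.17%). The libraries of the groups did not overlap for 2522 genes (20.3%), 1217 higher (9.79%) and 1305 lower (10.5%), and the median log2 fold change over all genes was −0.01. When only the 6 libraries compared were fitted, 5 genes were DEGs and 1712 had an unadjusted p under 0.05 (13.8%). The plot of p-values against fold changes places the 10 DEGs among all genes.

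**Figure D1:**
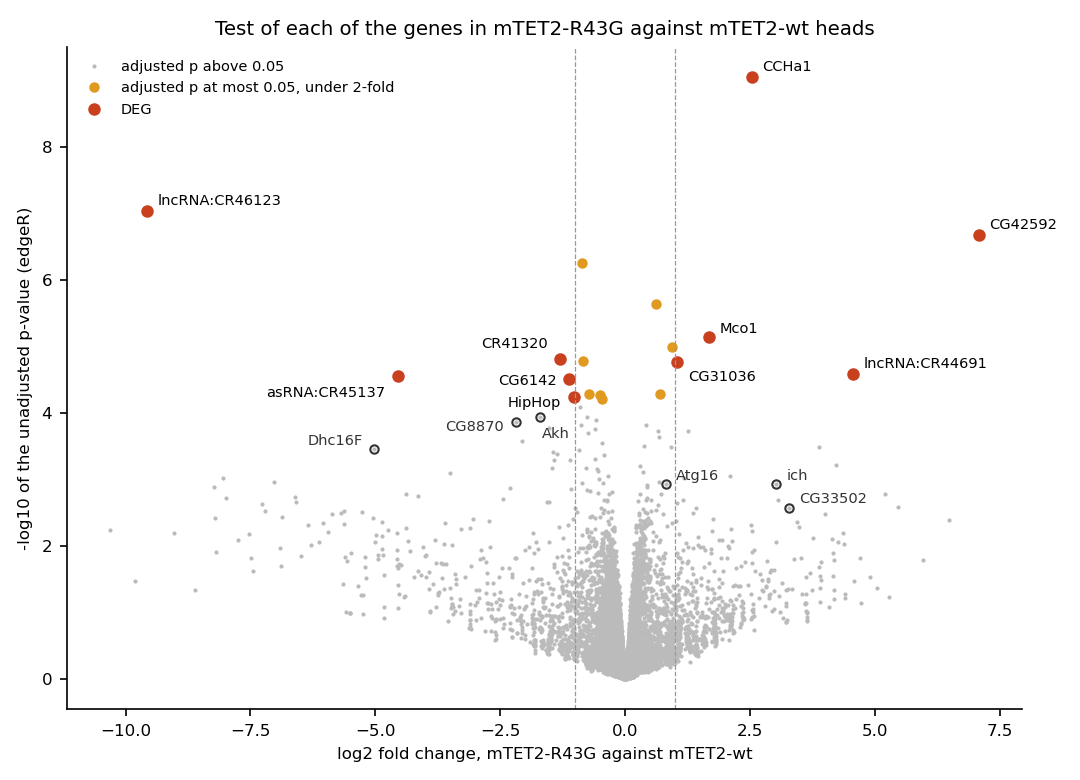
Each point is 1 of the 12433 genes tested, with its log2 fold change (mTET2-R43G against mTET2-wt) on the x axis and the −log10 of its unadjusted p from edgeR on the y axis. Red points are the 10 DEGs and orange points the 8 genes that passed the adjusted p below a 2-fold change. Circles are the genes Dhc16F, CG8870, Akh, Atg16, ich and CG33502, which did not pass in edgeR. Dashed lines mark a log2 fold change of 1 in either direction.

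The upregulated DEGs were a neuropeptide gene, a multicopper oxidase, protein coding genes known only by their numbers and a long non-coding RNA. CCHa1 encodes CCHamide-1, a neuropeptide made in clock neurons of the brain and in endocrine cells of the gut. It lay at 2.15, 2.76 and 2.18 CPM in mTET2-wt and at 12.6, 15.1 and 13.5 CPM in mTET2-R43G. The control libraries had 2.13, 2.27 and 2.48 CPM and the mTET2-R1261C libraries 2.03, 2.35 and 2.09 CPM, so that the 3 mTET2-R43G libraries stood alone and every other library lay under 3 CPM. The log2 fold change against mTET2-wt was 2.54 ± 0.14 (SE, n = 3 per group, adjusted p = 1.11e-05), the smallest adjusted p of the comparison. CCHa1 (FBgn0038199; dm6, 3R, 14092504 to 14096835, minus strand) was a DEG with each of the 6 libraries left out in turn.

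Mco1 encodes multicopper oxidase-1, an extracellular enzyme needed for normal iron levels in the fly. Its libraries were at 28.2, 39.4 and 41.7 CPM in mTET2-wt and at 124, 127 and 101 CPM in mTET2-R43G, without overlap. The level in control was 25.6, 43.1 and 40.3 CPM and that in mTET2-R1261C 105, 148 and 97.8 CPM, so that both mutants were high and both other groups low. Mco1 (FBgn0032116; 2L, 9416588 to 9426342) rose by 1.69 ± 0.22 on the log2 scale (adjusted p = 0.0151). It was a DEG in 3 of the 6 fits that left out 1 library, and the adjusted p was 0.0673 without replicate 1 of mTET2-wt, 0.0885 without its replicate 2 and 0.0658 when replicate 2 of mTET2-R43G was dropped.

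CG42592, a protein coding gene with no known role, went from nearly no reads to a low but clear level. Its 3 mTET2-wt libraries held 0, 0.0521 and 0.0519 CPM and its mTET2-R43G libraries 8.89, 5.29 and 3.24 CPM. Control was at 0, 0.0515 and 0 CPM and mTET2-R1261C at 14.4, 21.8 and 11.8 CPM, again with both mutants high. The ratio of summed counts between mTET2-R43G and mTET2-wt, scaled to depth, was 159.8, with a 95% counting interval of 43.84 to 1326 that covers counting error only (adjusted p = 0.000871). CG42592 (FBgn0260969; 3R, 29835610 to 29836288) was a DEG with each of the 6 libraries left out in turn.

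CG31036 was the exception among the upregulated genes, since it was mTET2-wt that left the level of the other groups. It lay at 10.2, 11.7 and 11.3 CPM in mTET2-wt and at 19.6, 20.6 and 28.3 CPM in mTET2-R43G. Control had 19.6, 27.5 and 23.7 CPM and mTET2-R1261C 23.0, 22.3 and 23.4 CPM, all within or near the range of mTET2-R43G. The log2 fold change of CG31036 (FBgn0051036; 3R, 29908107 to 29912892) was 1.05 ± 0.15 (adjusted p = 0.0212), and it was a DEG in 1 of the 6 fits that left out a library.

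The long non-coding RNA lncRNA:CR44691 was found almost only in mTET2-R43G. Its level was 0.232, 0.104 and 0.207 CPM in mTET2-wt and 7.14, 3.95 and 2.14 CPM in mTET2-R43G, with 0, 0.206 and 0.173 CPM in control and 0.131, 0.0602 and 0 CPM in mTET2-R1261C. The ratio of its summed counts to those of mTET2-wt was 24.3 (95% counting interval 12.97 to 51.37, adjusted p = 0.0290). Its gene (FBgn0265902; X, 17828096 to 17831094) was a DEG in 1 of the 6 fits that left out a library.

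**Figure D2:**
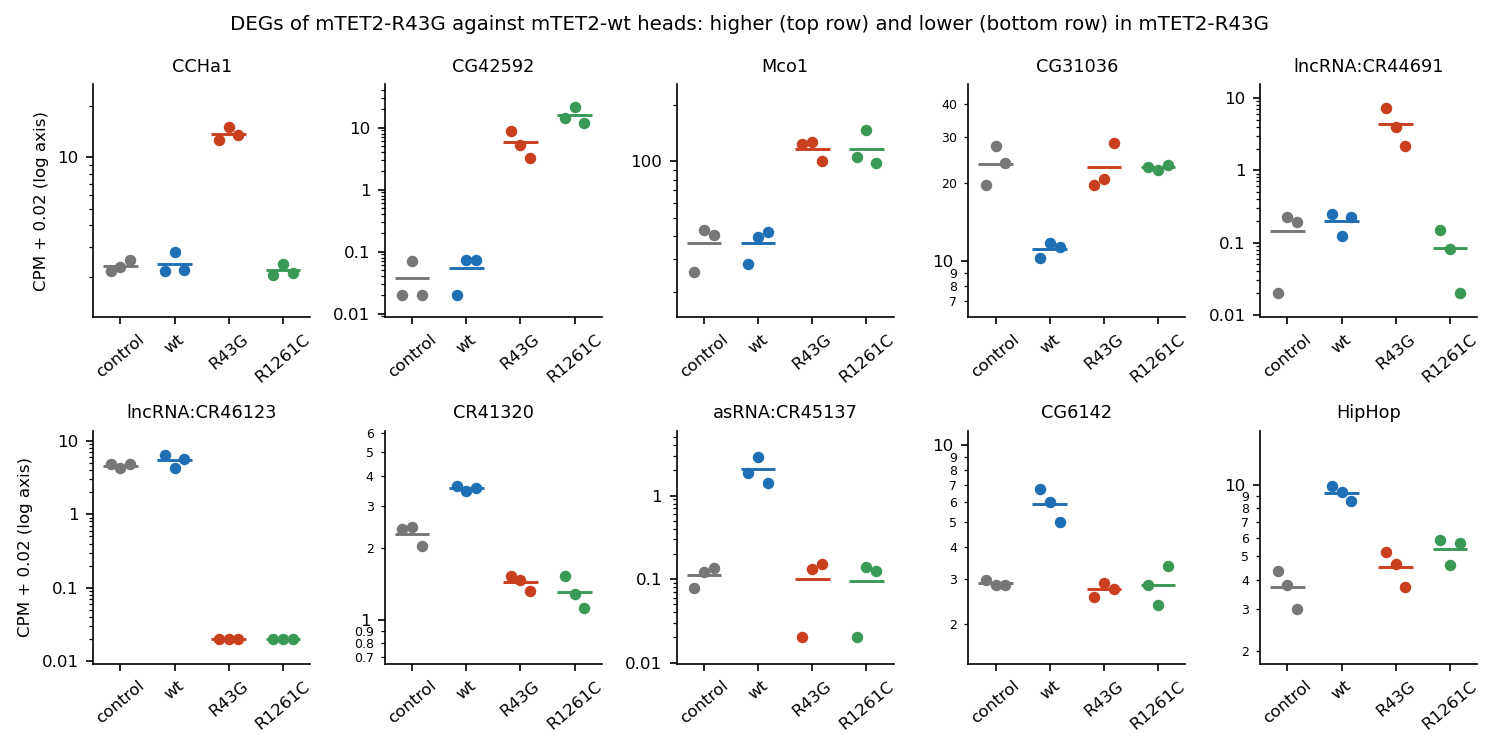
Each panel plots 1 of the 10 DEGs, with a point for each library, a bar for the group mean and the level as CPM + 0.02 on a log axis. CCHa1 and lncRNA:CR44691 were high in mTET2-R43G alone, CG42592 and Mco1 in both mutants, lncRNA:CR46123 was at 0 in both mutants, and CG31036, asRNA:CR45137, CG6142 and HipHop had their outlying group in mTET2-wt.

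The downregulated DEGs were 2 non-coding RNAs, a pseudogene, an uncharacterised gene and a gene of telomere protection. Transcripts of lncRNA:CR46123 were counted at 6.32, 4.22 and 5.65 CPM in mTET2-wt and at 4.73, 4.22 and 4.78 CPM in control. No read pair was counted in any of the 3 mTET2-R43G libraries or the 3 mTET2-R1261C libraries. Against a floor of 3 counts per library, the level of lncRNA:CR46123 (FBgn0267798; 3R, 1366234 to 1366601) was at least 30.32-fold lower in mTET2-R43G than in mTET2-wt (adjusted p = 0.000575), and the call held with each library left out.

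HipHop encodes a protein that binds HP1 and caps chromosome ends in the fly, which protects telomeres without telomerase. It lay at 9.86, 9.33 and 8.5 CPM in mTET2-wt and at 5.2, 4.62 and 3.69 CPM in mTET2-R43G. The control libraries had 4.32, 3.76 and 3.00 CPM and the mTET2-R1261C libraries 5.84, 4.57 and 5.65 CPM, so that the 3 mTET2-wt libraries were the highest of the 12. The log2 fold change of HipHop (FBgn0036815; 3L, 18821171 to 18822353) was −1.03 ± 0.17 (adjusted p = 0.0418), and the call was lost in each of the 6 fits without 1 library, where the adjusted p ran from 0.0641 to 0.188. None of the other 9 telomere capping genes tested had an unadjusted p under 0.05, beside 9.86% of all genes.

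The remaining downregulated DEGs were also highest in mTET2-wt. For asRNA:CR45137 (FBgn0266630; 2R, 12783611 to 12799259) the libraries were at 1.86, 2.87 and 1.4 CPM in mTET2-wt and at 0, 0.111 and 0.130 CPM in mTET2-R43G, and no library of control or mTET2-R1261C was above 0.120 CPM. The ratio of its summed counts in mTET2-wt to those in mTET2-R43G was 26.04 (95% counting interval 9.897 to 97.21, adjusted p = 0.0290). CG6142 (FBgn0039415; 3R, 26133154 to 26137148) lay at 6.73, 5.99 and 4.98 CPM in mTET2-wt and at 2.54, 2.89 and 2.72 CPM in mTET2-R43G, and the ranges were 2.82 to 2.96 CPM in control and 2.35 to 3.35 CPM in mTET2-R1261C. CG6142 changed by −1.11 ± 0.17 on the log2 scale (adjusted p = 0.0295), and with the replicate number as a block, where 15 genes were DEGs (0.121%) and 974 had an unadjusted p under 0.05 (7.83%), the adjusted p was 0.0721 and the call was lost. Both were DEGs in 1 of the 6 fits without a library, the one without mTET2-wt replicate 3. CR41320, a pseudogene (FBgn0085612; 3L, 26165235 to 26178793), lay between 3.44 and 3.60 CPM in mTET2-wt, between 2.02 and 2.42 CPM in control, between 1.3 and 1.51 CPM in mTET2-R43G and between 1.1 and 1.51 CPM in mTET2-R1261C. It fell by 1.31 on the log2 scale (± 0.18 SE, adjusted p = 0.0212), and the call was lost in each of the 6 fits that left out a library.

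Set beside the other contrasts of the same fit, which share libraries with this one, the 10 DEGs took different courses. Against control, mTET2-R43G had 167 DEGs (1.34%) and 538 genes past the adjusted p (4.33%), and mTET2-wt had 149 (1.2%) and 279 (2.24%). On the log2 scale CCHa1 differed from control by 2.58 in mTET2-R43G (adjusted p = 4.80e-06) and by 0.04 in mTET2-wt (adjusted p = 0.934). For Mco1 these values were 1.69 (adjusted p = 0.00230) and 0.00 (adjusted p = 0.996). HipHop had 0.29 in mTET2-R43G (adjusted p = 0.346) and 1.32 in mTET2-wt (adjusted p = 0.00212), and CG6142 had −0.08 (adjusted p = 0.832) and 1.04 (adjusted p = 0.00800). CG31036 had −0.05 in mTET2-R43G (adjusted p = 0.876) and −1.10 in mTET2-wt (adjusted p = 0.00287).

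Against mTET2-wt, mTET2-R1261C had 18 DEGs (0.145%) and 24 genes past the adjusted p (0.193%), and between the mutants these numbers were 9 (0.0724%) and 12 (0.0965%). From mTET2-R43G to mTET2-R1261C, CCHa1 fell by 2.67 on the log2 scale (adjusted p = 5.87e-06) and lncRNA:CR44691 fell by 6.05 (adjusted p = 0.0171). For the other DEGs this contrast did not pass. Mco1 had −0.01 (adjusted p = 1.0), CG42592 had 1.46 (adjusted p = 0.255), CG6142 had 0.06 (adjusted p = 0.903), HipHop had 0.25 (adjusted p = 0.545) and CR41320 had −0.14 (adjusted p = 0.811).

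Among the genes that passed the adjusted p with less than a 2-fold change, Sdr, DNAlig3 and NimB1 have known products. Sdr encodes the secreted decoy of the insulin receptor, a protein of the haemolymph that binds insulin-like peptides. It was at 18.7, 19.9 and 21.1 CPM in mTET2-wt and at 30.4, 29.3 and 32 CPM in mTET2-R43G, a log2 fold change of 0.62 ± 0.07 (adjusted p = 0.00569). Its control level was higher than both, at 38.7, 39.0 and 38.0 CPM, and mTET2-R1261C lay at 25.1, 23.8 and 26.1 CPM, so that the order of the 4 groups held library by library.

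DNAlig3, a DNA ligase gene, fell by 0.87 on the log2 scale (± 0.09 SE, adjusted p = 0.00173), from 27.3, 30.8 and 26.3 CPM in mTET2-wt to 15, 16.1 and 15.2 CPM in mTET2-R43G. Control and mTET2-R1261C lay between 16.7 and 19.2 CPM, so that mTET2-wt was the highest group. NimB1, a secreted member of the Nimrod family whose relatives act in blood cells, lay at 12.4, 15.1 and 14.5 CPM in mTET2-wt and at 8.83, 9.01 and 7.52 CPM in mTET2-R43G. NimB1 changed by −0.73 ± 0.12 on the log2 scale (adjusted p = 0.0415, and 0.0927 with the replicate number as a block). Slc45-1, which encodes a sugar transporter, rose by 0.69 ± 0.11 on the log2 scale (adjusted p = 0.0415, and 0.0819 with the block), from 25.5 to 27.3 CPM in mTET2-wt to 35.1 to 46.9 CPM in mTET2-R43G, a level that control shared (38.4 to 42.2 CPM). The remaining 4 genes were CG31436 (0.94 ± 0.13, adjusted p = 0.0181), CG10550 (−0.84 ± 0.12, adjusted p = 0.0212), asRNA:CR45600 (−0.50 ± 0.08, adjusted p = 0.0415, and 0.0721 with the block) and CG5112 (−0.45 ± 0.07, adjusted p = 0.0420, and 0.0721 with the block).

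Among genes not past the threshold, the 5 higher ones with the smallest p were t, asRNA:CR45520, Cpn, Osi2 and Hdc, and the 3 lower ones with the smallest p were CG10352, Akh and CG2003. Of these, t, Hdc and Cpn are known from photoreceptors and histamine metabolism, a grouping made after their values were seen. The gene tan (t) encodes the hydrolase that frees histamine and dopamine from their beta-alanine conjugates, Hdc encodes histidine decarboxylase, which makes histamine, the transmitter of photoreceptors, and Cpn encodes calphotin, a calcium binding protein of the eye. The libraries of t were at 235, 225 and 218 CPM in mTET2-wt and at 317, 309 and 282 CPM in mTET2-R43G (log2 fold change 0.42 ± 0.08, adjusted p = 0.0766). Hdc lay at 70.5, 68.3 and 74.4 CPM against 89.0, 101 and 89.0 CPM (0.39 ± 0.08, adjusted p = 0.113), and Cpn at 204, 241 and 242 CPM against 310, 405 and 376 CPM (0.67 ± 0.12, adjusted p = 0.0793). In each of these genes the groups did not overlap. With DESeq2 in place of edgeR, which called 29 DEGs (0.233%) and gave an unadjusted p under 0.05 to 1048 genes (8.43%), the adjusted p was 9.74e-05 for t, 0.00153 for Hdc and 0.00017 for Cpn.

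The phototransduction list as a whole held no gene that passed in edgeR. Of its 23 members, all tested, 3 had an unadjusted p under 0.05 and all 3 were higher in mTET2-R43G (4.69% of all genes were), 11 were higher without overlap of the libraries (9.79% of all genes) and none was lower without overlap (10.5%). The number at an unadjusted p under 0.05 was 6 without mTET2-R43G replicate 3, and 2 higher with 1 lower when replicate 1 of that group was left out. The median log2 fold change was 0.14, and 21 of the 23 values were positive. The cyclophilin gene ninaA, which brings the main opsin to the cell surface, lay at 70.4, 66.0 and 70.0 CPM in mTET2-wt and at 91.0, 80.1 and 81.4 CPM in mTET2-R43G (0.29 ± 0.07, adjusted p = 0.271, and 0.0290 with DESeq2). The opsin gene ninaE lay at 9933, 9831 and 10100 CPM against 12620, 11590 and 11000 CPM (0.24 ± 0.15, adjusted p = 0.581), and control ran from 8874 to 11820 CPM across that gap. The 12 neuronal markers tested had a median of 0.16 with all 12 values positive. Of these, 1 (Rdl, a GABA receptor) had an unadjusted p under 0.05, beside 9.86% of all genes. Markers of glia (median −0.04), fat body (−0.05), muscle (−0.12) and haemocytes (−0.25) held no gene at that p. Fat body markers summed to between 27830 and 29030 CPM in mTET2-wt and to 26470, 16330 and 20950 CPM in mTET2-R43G, without overlap, whereas control ran from 19100 to 30020 CPM. The part of these tissue shares in the other results was not tested.

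**Figure D3:**
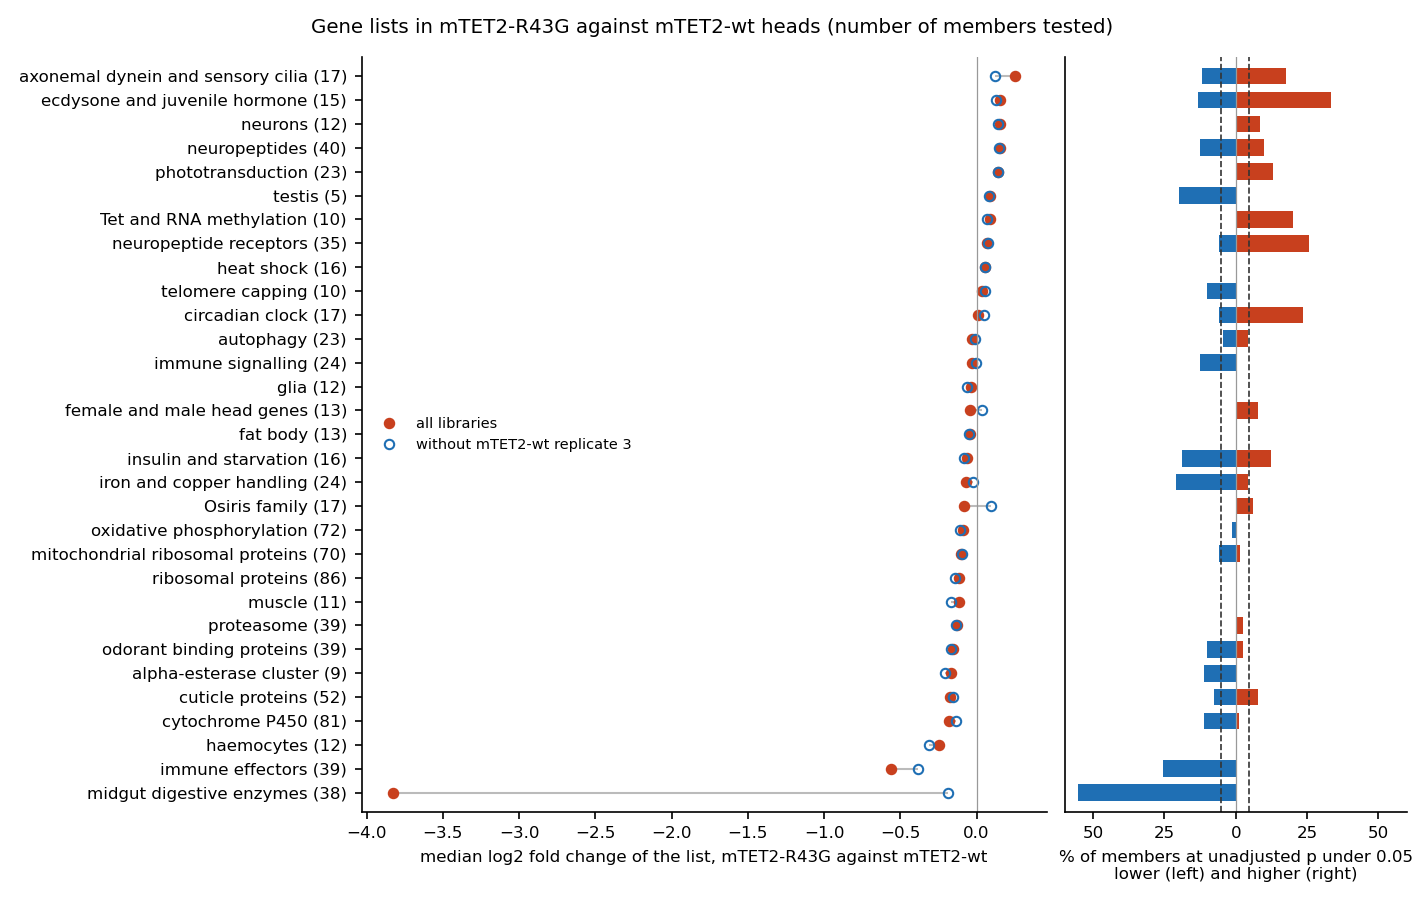
The left panel gives the median log2 fold change (mTET2-R43G against mTET2-wt) of each gene list with all libraries as a filled point and without mTET2-wt replicate 3 as an open one. The right panel gives the percentage of the members tested with an unadjusted p under 0.05, higher to the right and lower to the left, with dashed lines at the 4.69% and 5.17% of all genes. Midgut enzymes had a median of −3.83 with all libraries and of −0.19 without mTET2-wt replicate 3, immune effectors −0.56 and −0.38.

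Among neuropeptide genes, CCHa1 was the only one to pass. Of 44 listed, 40 were tested, 4 were higher and 5 lower at an unadjusted p under 0.05 (4.69% and 5.17% of all genes), and the median was 0.15. Leaving out mTET2-R43G replicate 2 gave 1 and 2, and leaving out replicate 3 of that group gave 10 and 3. Akh encodes adipokinetic hormone, which frees stored sugar and lipid when a fly needs fuel. It lay at 8.76, 9.28 and 7 CPM in mTET2-wt and at 1.57, 2.89 and 3.24 CPM in mTET2-R43G, without overlap, and control was at 2.96, 3.3 and 2.31 CPM. Its log2 fold change of −1.70 ± 0.30 did not pass (adjusted p = 0.0688), whereas DESeq2 called it (adjusted p = 9.74e-05). The higher members with an unadjusted p under 0.05 were CCHa1, Crz (0.40), Gpb5 (0.39) and NPF (0.28), and the lower ones besides Akh were Pburs, Nplp4, SIFa and AstCC, named after their values were seen. Of the 35 receptors of these peptides, 9 were higher and 2 lower at an unadjusted p under 0.05 (4.69% and 5.17% of all genes), with a median of 0.07 and none past the adjusted threshold. Without mTET2-R43G replicate 2, 4 were higher and 1 lower and the median was −0.00025. They included SPR, the sex peptide receptor (0.32 ± 0.11, adjusted p = 0.413), and Pdfr, the receptor of the clock peptide PDF (0.18 ± 0.07, adjusted p = 0.460).

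The circadian clock list of 17 genes held 4 higher and 1 lower member at an unadjusted p under 0.05 (4.69% and 5.17% of all genes), with a median of 0.01. Only 1 was higher when replicate 1 or replicate 3 of mTET2-wt or replicate 2 of mTET2-R43G was left out, and 2 without mTET2-R43G replicate 3. The core gene tim lay at 247, 329 and 364 CPM in mTET2-wt and at 390, 255 and 211 CPM in mTET2-R43G, with overlap (−0.13 ± 0.28, adjusted p = 0.880, and a log2 fold change of 0.047 without mTET2-R43G replicate 3). Atx2, an activator of per translation, lay at 112 to 118 CPM in mTET2-wt and 129 to 165 CPM in mTET2-R43G (0.38 ± 0.14, adjusted p = 0.436), and cyc, the partner of Clk, at 29.3, 31.7 and 26.3 CPM against 25.2, 25.3 and 25.6 CPM (−0.20 ± 0.08, adjusted p = 0.453).

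Of 15 genes of steroid and juvenile hormone signalling tested, none passed. At an unadjusted p under 0.05, 5 were higher (br, Eip78C, Eip75B, EcR and Eip74EF, of the ecdysone response), beside 4.69% of all genes, and 2 were lower (jhamt and Jhe, of juvenile hormone metabolism), beside 5.17%. The number of higher members was 2 with replicate 3 of mTET2-wt left out, 1 with replicate 2 of mTET2-R43G left out and 3 when replicate 1 of mTET2-wt or replicate 3 of mTET2-R43G was left out. The broad gene (br), an early ecdysone target, lay at 50.5, 55.8 and 47.3 CPM in mTET2-wt and at 62.9, 65.7 and 68.8 CPM in mTET2-R43G (0.36 ± 0.11, adjusted p = 0.413). The methyltransferase gene jhamt, whose product completes juvenile hormone, lay at 9.11, 7.66 and 5.50 CPM against 2.78, 3.51 and 4.21 CPM (−1.08 ± 0.26, adjusted p = 0.250, and 0.0322 with DESeq2). In the insulin and starvation list, Sdr was the only one of 16 genes tested to pass in edgeR. Pepck2, a gene of sugar synthesis, lay at 264, 303 and 307 CPM in mTET2-wt and at 110, 196 and 171 CPM in mTET2-R43G (−0.87 ± 0.20, adjusted p = 0.231, and 0.0057 with DESeq2). Both groups were above control, at 44.0 to 73.8 CPM.

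In the list of iron and copper genes, Mco1 was the only one of 24 tested to pass in edgeR. Another 5 were lower at an unadjusted p under 0.05 (5.17% of all genes), or 2 without mTET2-wt replicate 3 and 3 with replicate 2 of mTET2-R43G left out. Irp-1B, an iron regulatory protein, lay at 176, 175 and 176 CPM in mTET2-wt and at 136, 107 and 111 CPM in mTET2-R43G (−0.58 ± 0.10, adjusted p = 0.0734, and 0.000187 with DESeq2), with control between 93.2 and 112 CPM. Tsf1, the transferrin of the haemolymph, lay at 2787, 3143 and 3870 CPM in mTET2-wt and at 2835, 1652 and 1017 CPM in mTET2-R43G, with overlap (−0.83 ± 0.33, adjusted p = 0.467), and at 268 to 580 CPM in control. CG33502, which is annotated for iron-sulphur cluster binding, lay at 0.348, 0.156 and 0.674 CPM against 7.68, 3.00 and 0.907 CPM, a log2 fold change of 3.27 ± 0.86 that did not pass (adjusted p = 0.333, and 0.0111 with DESeq2).

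The immune effector list joined antimicrobial and stress peptides, many of which the Toll, IMD and JAK-STAT pathways induce, with peptidoglycan recognition proteins. Its members held no gene that passed, and their summed level was lower in each mTET2-R43G library than in any of mTET2-wt. Of 49 listed, 39 were tested, 0 passed, 10 were lower and 0 higher at an unadjusted p under 0.05 (5.17% and 4.69% of all genes), and 5 were lower without overlap (10.5% of all genes). Their summed level was 3655, 3081 and 4007 CPM in mTET2-wt and 2756, 2813 and 963 CPM in mTET2-R43G, and replicate 3 of mTET2-R43G was within the control range of 653 to 1010 CPM. TotA, a stress peptide under JAK-STAT control, lay at 500, 362 and 575 CPM against 237, 91.2 and 90.0 CPM (−1.78 ± 0.57, adjusted p = 0.413), and the antifungal peptide gene Drs at 435, 344 and 414 CPM against 303, 421 and 39.0 CPM (−0.64 ± 0.88, adjusted p = 0.807). The median log2 fold change of −0.56 ran from −0.82 without mTET2-R43G replicate 2 to −0.30 without mTET2-R43G replicate 3, and was −0.38 with mTET2-wt replicate 3 left out. The number of lower members ran from 3, when replicate 3 of either group was left out, to 13 without mTET2-R43G replicate 1, and it was 5 with replicate 1 of mTET2-wt left out and 6 with replicate 2 of mTET2-R43G left out. The bomanin genes BomBc2 (−0.58, adjusted p = 0.522) and BomS5 (−0.81, adjusted p = 0.529) were DEGs without mTET2-R43G replicate 1, at −1.14 (adjusted p = 0.0252) and −1.65 (adjusted p = 0.0466). Replicate 3 of mTET2-R43G also had the highest share of ribosomal RNA, 7.31%, and the part of that share in the low sum was not tested. Of 24 genes of immune signalling, 3 were lower and 0 higher at an unadjusted p under 0.05 (5.17% and 4.69% of all genes), and the median was −0.03. The number of lower members fell to 0 with the replicate number as a block. It was also 0 when replicate 1 of mTET2-wt or replicate 3 of mTET2-R43G was left out.

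The difference in midgut digestive enzymes came mostly from a single library. Of 38 enzymes tested, 21 were lower at an unadjusted p under 0.05 (5.17% of all genes) and 0 passed the adjusted threshold. Their summed level was 248, 196 and 2734 CPM in mTET2-wt against 189, 210 and 227 CPM in mTET2-R43G. Without mTET2-wt replicate 3, 4 of the 38 were lower at an unadjusted p under 0.05, beside 398 of all 12427 genes in that fit. The median went from −3.83 to −0.19. The protease gene Jon25Bii lay at 3.13, 1.88 and 92.4 CPM in mTET2-wt and at 0.121, 0 and 0.259 CPM in mTET2-R43G, so that the wild type libraries with few enzyme reads were also above the mutant ones (adjusted p = 0.288, and 0.00124 with the replicate number as a block). With that block, Jon25Bii, Jon25Bi (adjusted p = 0.00124, from 0.365) and thetaTry (adjusted p = 0.00463, from 0.402) were DEGs. Without mTET2-wt replicate 3 in the fit, 7 genes were DEGs (0.0563%) and 749 genes had an unadjusted p under 0.05 (6.03%). The DEGs CCHa1, CG42592, Mco1, lncRNA:CR46123, asRNA:CR45137 and CG6142 were among the 7, and CG15213 was the further one. CG31036, lncRNA:CR44691, CR41320 and HipHop were no DEGs there, with adjusted p-values of 0.0868, 0.0885, 0.0664 and 0.103 and log2 fold changes of 1.06, 4.68, −1.31 and −1.09.

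**Figure D4:**
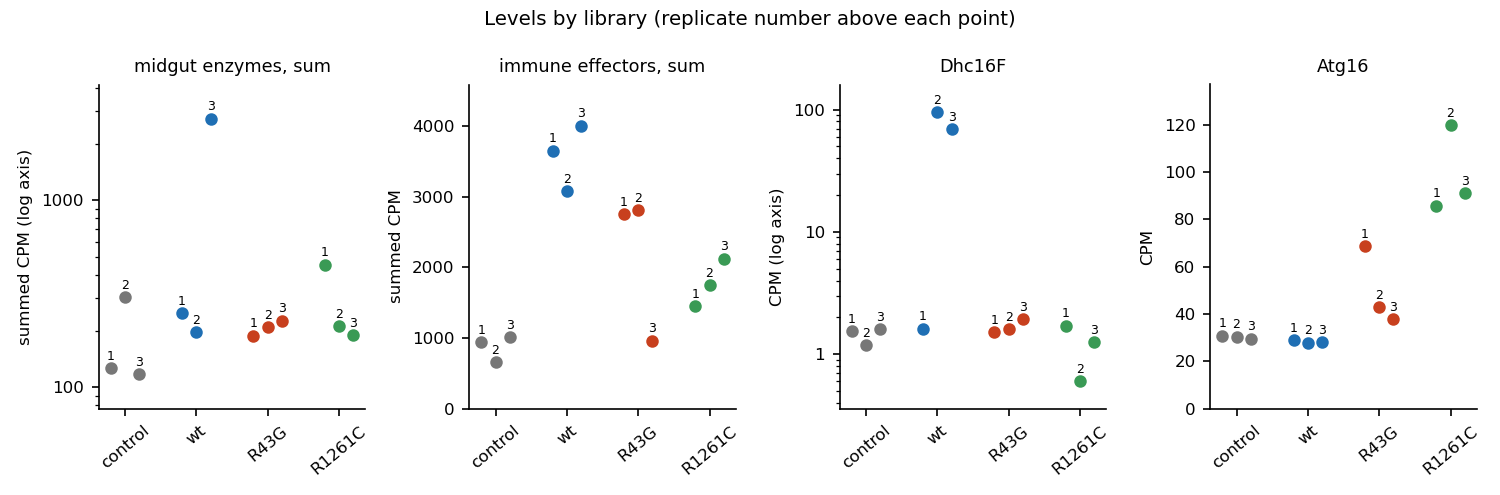
Points are single libraries with the replicate number above, for the summed CPM of 38 midgut enzymes (log axis), the summed CPM of 39 immune effectors, and the CPM of Dhc16F (log axis) and Atg16. Midgut enzymes stood out in mTET2-wt replicate 3 with 2734 CPM, immune effectors were low in mTET2-R43G replicate 3, Dhc16F was high in mTET2-wt replicates 2 and 3 alone, and Atg16 was higher in both mutants than in any library of the other groups.

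Dhc16F, a dynein heavy chain of motile cilia, differed widely among the mTET2-wt libraries. It lay at 1.62, 95.8 and 68.8 CPM in mTET2-wt and at 1.51, 1.61 and 1.94 CPM in mTET2-R43G, so that mTET2-wt replicate 1 lay within the mutant range and the others far above it. Control ran from 1.19 to 1.61 CPM and mTET2-R1261C from 0.602 to 1.71 CPM. The log2 fold change of Dhc16F was −5.03 ± 1.01 (adjusted p = 0.117 in edgeR, and 0.00017 with DESeq2, which called it a DEG). Without mTET2-wt replicate 1 it was −5.60 and Dhc16F was a DEG in edgeR (adjusted p = 8.98e-06). Among the 17 cilium genes tested, 3 were higher and 2 lower at an unadjusted p under 0.05 (4.69% and 5.17% of all genes).

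The transcription factor genes ich and hkb, which are known from embryonic development, had low levels and did not pass. The libraries of ich were at 0.290, 0.365 and 0.104 CPM in mTET2-wt and at 3.69, 0.556 and 2.07 CPM in mTET2-R43G (3.02 ± 0.71, adjusted p = 0.233, and 0.0233 with DESeq2), and control and mTET2-R1261C stayed under 0.37 CPM. Those of hkb were at 0.348, 2.81 and 1.61 CPM against 7.50, 5.12 and 3.69 CPM (1.76 ± 0.49, adjusted p = 0.365, and 0.0596 with DESeq2). Relative to control, the log2 fold change of hkb was 4.97 in mTET2-R43G (adjusted p = 0.00246) and 3.21 in mTET2-wt (adjusted p = 0.0359).

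Atg16 encodes a partner of Atg5 and Atg12 in the machinery that attaches Atg8 to the autophagosome membrane. It lay at 29.0, 27.9 and 28.2 CPM in mTET2-wt and at 68.8, 43 and 37.9 CPM in mTET2-R43G, without overlap but with the mutant libraries spread over a wide range (0.81 ± 0.19, adjusted p = 0.233, and 0.00504 with DESeq2). The mTET2-R1261C libraries were higher again, at 85.8, 120 and 91.0 CPM, and control lay between 29.5 and 30.8 CPM. The other 22 autophagy genes tested held 1 member at an unadjusted p under 0.05 (9.86% of all genes), Atg4a (−0.18), and the median of the list was −0.03. The fly gene Tet itself, whose regulatory region drives the transgenes, lay at 348, 359 and 330 CPM in mTET2-wt and at 378, 425 and 423 CPM in mTET2-R43G (0.24 ± 0.11, adjusted p = 0.495).

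Some of these genes lay next to each other. Atg16 (3R, 29827281 to 29835101) and CG42592 lay 509 bp apart. Both were on the minus strand, so that CG42592 was upstream of Atg16. CG31036 lay at higher coordinates on the same arm. Between CG42592 and CG31036 were 11 tested genes, of which none had an unadjusted p under 0.05. Of the 18 genes that passed the adjusted p, 11 were on 3R (61.11%), an arm with 24.66% of the genes tested. Of the 67 tested genes that were the nearest 2 on either side of those 18, 16 had an unadjusted p under 0.05 (23.88%), and of the 39 such neighbours of the DEGs it was 6 (15.38%), beside 9.86% of all genes. No gene of the 40 tested within 100 kb of the landing site passed. At an unadjusted p under 0.05, 2 of the 40 were higher and 2 lower, a share close to the 9.86% of all genes. The higher ones were Dnaaf3 and sbb. The lower ones were the bomanin genes BomS2 (log2 fold change −0.7794) and BomT2 (−1.002). The median of the 40 was −0.04. BomBc2 and BomS5, which were DEGs without mTET2-R43G replicate 1, lie in that window. Every bomanin gene tested there had a negative log2 fold change, the smallest in size being −0.2088 for BomBc1. Bomanin genes of the window are thus also among the immune effectors described above. The part of the landing site in the lower level of immune effectors was not tested.

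A stretch with several of these genes, chosen after values were seen, lay on 3R from 25273837 to 25331203 and held 23 tested genes that end with CHKov1 and CHKov2. Within it, 1 gene was higher and 7 were lower in mTET2-R43G at an unadjusted p under 0.05 (4.69% and 5.17% of all genes). The median was −0.30, and neighbours went opposite ways. CG31436 lay at 11.4, 11.4 and 9.70 CPM in mTET2-wt and at 20.3, 21.0 and 21.2 CPM in mTET2-R43G, and it rose. The next gene, CG10550, lay at 168, 169 and 152 CPM against 79.4, 85.4 and 108 CPM, and it fell. CG11893, 8 genes before CG10550 in the order of the stretch, lay at 5.45, 4.12 and 6.69 CPM against 0.484, 1.11 and 2.33 CPM. Its log2 fold change was −2.06 ± 0.40 (adjusted p = 0.102, and 0.000104 with DESeq2, which called it a DEG). Both groups lay below a control level of 10.7 to 14.4 CPM. CG31370 (−0.70, adjusted p = 0.267) and CG31288 (−0.69, adjusted p = 0.413) were lower without overlap and did not pass. The other lower members, CG11878, CG31104 and CG13658, each had their highest level in mTET2-wt replicate 3, the library with midgut enzymes.

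**Figure D5:**
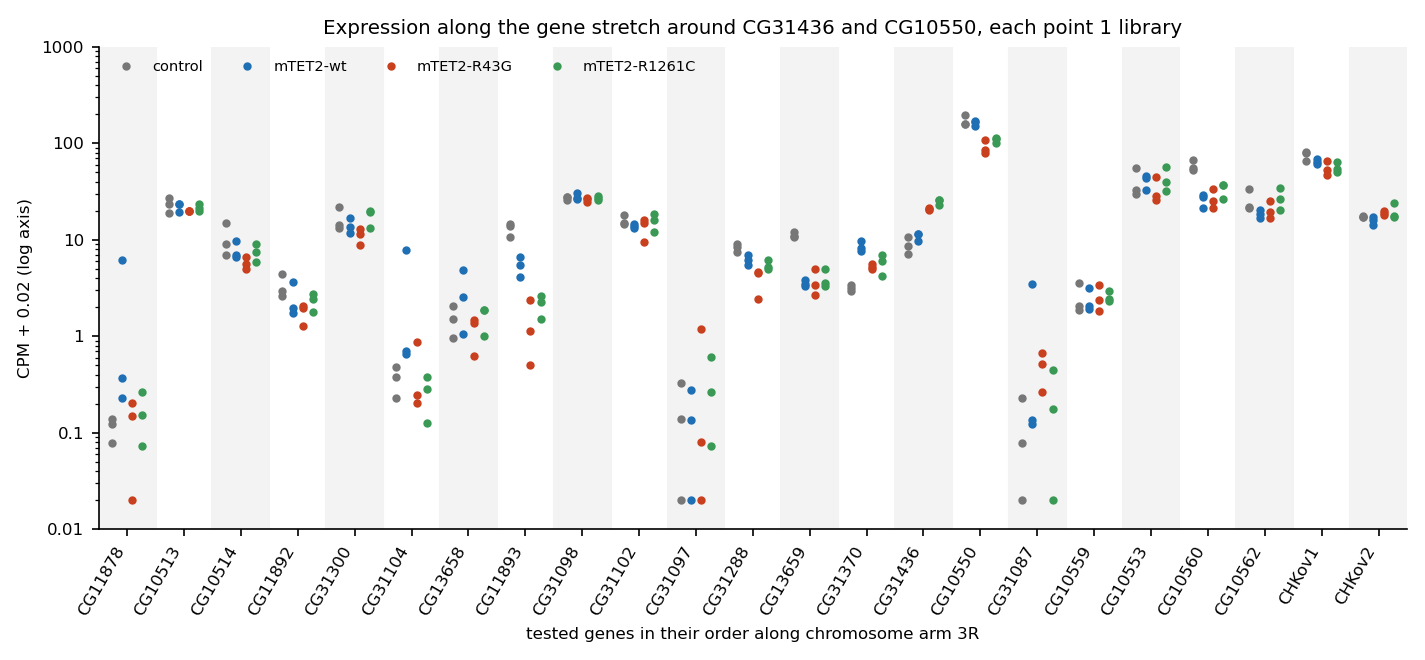
Each column is 1 of 23 tested genes in their order along 3R, with a point for each library of the 4 groups and the level as CPM + 0.02 on a log axis. CG31436 was higher and CG10550 lower in both mutants than in control and mTET2-wt, while most other genes of the stretch had overlapping groups.

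Shorter stretches of the same kind were also picked after their values were seen. CG8870 and lncRNA:CR44138 on 3R were both highest in mTET2-wt. The RNA of lncRNA:CR44138 lay at 3.25, 4.27 and 2.80 CPM in mTET2-wt and at 0.484, 1.22 and 0.130 CPM in mTET2-R43G (−2.45 ± 0.62, adjusted p = 0.288, and 0.0204 with DESeq2). CG8870 lay at 10.2, 15.4 and 12.9 CPM in mTET2-wt and at 3.33, 4.17 and 0.907 CPM in mTET2-R43G (−2.18 ± 0.39, adjusted p = 0.0751). No library of control or mTET2-R1261C was above 1 CPM. CG8870 was a DEG with the replicate number as a block (adjusted p = 0.0309) and with DESeq2 (adjusted p = 0.000104). DNAlig3 sat between the cytochrome genes Cyp9f3 (−0.74 ± 0.14, adjusted p = 0.0833) and Cyp9f2 (−0.32 ± 0.12, adjusted p = 0.436), both lower without overlap. Sol1, whose span on the other strand covers DNAlig3, was higher without overlap (0.29 ± 0.11, adjusted p = 0.460). Of all 81 cytochrome P450 genes tested, which act on hormones and foreign compounds, 9 were lower and 1 higher at an unadjusted p under 0.05 (5.17% and 4.69% of all genes), with a median of −0.18. The number of lower members ran from 6 to 13 over the fits that left out 1 library. Without mTET2-R43G replicate 2, 6 were lower and 4 higher (413 and 366 of all genes in that fit), and the median was −0.10.

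Gene length went along with the sign of small differences. When genes were split by span into 4 bins of like size, the bin of the longest, 5.616 kb or more, held 3109 genes. In it, 330 were higher and 75 lower in mTET2-R43G at an unadjusted p under 0.05 (median 0.07). The bin of the shortest, up to 1.284 kb, held 3106 genes, of which 95 were higher and 194 lower (median −0.09). Over all genes, 4.69% were higher and 5.17% lower. Relative to the mean of control, the median log2 difference of the longest genes was 0.04, 0.06 and 0.04 in mTET2-wt and 0.07, 0.16 and 0.11 in mTET2-R43G, without overlap. The single control libraries spread from −0.06 to 0.06 and those of mTET2-R1261C from −0.06 to 0.09 by the same measure. With mTET2-wt replicate 3 left out, 151 of the longest genes were higher and 56 lower, leaving out replicate 2 of mTET2-R43G gave 129 and 53, and leaving out replicate 1 of mTET2-wt gave 177 and 60. Leaving out replicate 1 of mTET2-R43G gave 518 and 78, and fitting only the 6 libraries compared gave 577 and 102. In the same order of fits, 749, 779, 897, 1581 and 1712 of all genes had an unadjusted p under 0.05. With all libraries the number was 1226. The bin of the longest held 12 of the 12 neuronal markers (list median 0.16), 31 of 35 peptide receptors (0.07), 13 of 17 clock genes (0.01), 12 of 23 phototransduction genes (0.14), 13 of 24 immune signalling genes (−0.03), 8 of 12 glial markers (−0.04), 6 of 11 muscle markers (−0.12), 6 of 12 haemocyte markers (−0.25), 8 of 40 neuropeptide genes (0.15) and 0 of 86 ribosomal protein genes (−0.11). The same bin held 14 of 17 cilium genes (0.26) and 11 of 15 genes of steroid and juvenile hormone signalling (0.16). The part of length in the list results was not tested.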

How the data were processed

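RNA was sequenced from heads with a stranded total RNA kit (TruSeq). Per the labels and the study's methods, the authors checked reads with FastQC 0.11.8, aligned them to dm6 with HISAT2 2.1.0 and counted pairs per gene with featureCounts (2.0.1 in the labels, another version in the file header), and the deposited table holds raw counts per gene over the whole gene span, introns included, with pairs that fit several genes or places left out. All 12 columns of libraries were used and 0 other columns of per-sample values were left out. Genes that overlap another on the same strand (2896) lose shared pairs. Symbols came from the reference annotation (17632 of 17730 genes).

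Groups followed the genotype label. Genes whose counts summed to 10 or more over the libraries were fitted in edgeR 4.0.16 (R 4.3.3, limma 3.58.1) with TMM scaling, a mean per group and 8 residual degrees of freedom over all 12 libraries. DEGs needed an adjusted p (Benjamini-Hochberg) of at most 0.05 and a log2 fold change of at least 1. The standard error is the log2 fold change divided by the root of F. CPM were computed by edgeR from the counts and the TMM-scaled library sizes. The median coefficient of variation between replicates was 13.5%, and counting intervals cover counting error only.

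Same-numbered mTET2-wt and mTET2-R43G libraries deviated together (r of 0.17, 0.151 and 0.291 over genes), the labels do not say why, and blocked values stand beside results whose call they change. Genes were named by rule (all DEGs, the 8 genes next in p in each direction, genes the study names, list members that passed or had the highest levels or smallest p, DESeq2 calls with the smallest p, and neighbours of DEGs), and others are said to be chosen after values were seen. Members, lists and tests were chosen with earlier results of these data known. The script was tested on simulated data. Alternatives were DESeq2 1.42.0, other scaling, filters, a block, a robust fit and left-out libraries. Figures were made with matplotlib 3.10.9.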

Additional observations from a re-analysis of the deposited data

How the results depend on the processing

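The number of DEGs was 10, and it stayed between 9 and 13 with size factors of the DESeq2 kind, without a filter on low counts, with edgeR's own filter, without ribosomal RNA genes and with a robust fit. It was 15 with the replicate number as a block, where 9 of the 10 remained, CG6142 was lost and Alp10, CG6295, CG8870, Jon25Bi, Jon25Bii and thetaTry were gained. Fitting only the 6 libraries compared gave 5, of which 4 were among the 10 (CCHa1, CG42592, Mco1 and lncRNA:CR46123). Leaving out 1 library gave 3 to 8, namely 5 when replicate 1 of mTET2-wt was dropped and 3 when replicate 2 of either group was. Replicate 1 of mTET2-R43G left out added BomBc2 and BomS5. DESeq2 called 29 (0.233%), all 10 among them, and DESeq2 without the control group, an alternative chosen after seeing the data, also called 29. With no minimum fold change there were 18. Of the single genes rerun under each setting, all but y and tim kept their sign. The fold change of y went from −0.04 to 0.10 without replicate 1 of mTET2-wt, 0.03 without replicate 1 of mTET2-R43G and 0.06 without its replicate 3 (range −0.21 to 0.10 over the 6 left-out libraries), and that of tim from −0.13 to 0.047 without replicate 3 of mTET2-R43G (range −0.43 to 0.047), and neither passed under any setting. CCHa1, CG42592 and lncRNA:CR46123 were called under every setting tried. Depth limits the genes of a few CPM most, since few read pairs per library lie behind them.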
